A study of Mus musculus with 18 samples.

Results

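The globin genes, whose proteins form the haemoglobin of red blood cells, were followed through 18 RNA-seq samples of whole mouse embryonic lung. Every gene symbol beginning with Hba- or Hbb- was taken as a member. This gave 8 of the 23420 genes listed in each of 3 tables. Hba-x, Hbb-y and Hbb-bh1 are the 3 embryonic globins among them, and Hba-a1, Hba-a2, Hbb-b1, Hbb-b2 and Hbb-bh2 are the 5 later globins. Lungs were collected 14.5 days post coitus (dpc) in 3 lines. In the Rptor line, Rptorf/f; ShhCre/+ lungs were compared with Rptorf/+; ShhCre/+ littermates. The Tfam line held Tfamf/f; ShhCre/+ lungs and Tfamf/+; ShhCre/+ littermates, and the Cox10 line held Cox10f/f; ShhCre/+ lungs and Cox10f/+; ShhCre/+ littermates. Each of the 6 groups had 3 samples, named here deficient and control with the number in their titles. Control lungs therefore also carry Cre and 1 floxed allele. The Cre is driven by Shh and acts in the lung epithelium, while red cells and vessels keep the intact genes. The lungs contain blood, and nothing in the sources used here says that it was washed out.

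Haemoglobin pairs alpha-like with beta-like globin chains, each holding a haem group. In the mouse the first red cells arise in the yolk sac and circulate as large nucleated primitive erythroid cells. They make the alpha-like chain zeta, encoded by Hba-x, and the beta-like chains encoded by Hbb-bh1 and Hbb-y. As these cells mature, Hbb-bh1 gives way to Hbb-y, and adult alpha chains take over from zeta. Definitive red cells from the fetal liver follow in mid gestation and make the adult chains encoded by Hba-a1 and Hba-a2 and by the adult beta genes. The balance of adult to embryonic globin RNA in a tissue that contains blood is therefore commonly read as a marker of developmental stage.

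The embryonic genes and the adult genes lie in the same clusters and have coding sequences of the same length within a family, 441 bases for the beta-like and 426 for the alpha-like genes compared, yet their sequences are well apart. In RefSeq coordinates on mm10 (GRCm38), Hba-x (chr11:32276600-32278116), Hba-a1 (chr11:32283672-32284486) and Hba-a2 (chr11:32296492-32297310) lie on the plus strand. On the minus strand of chromosome 7 lie Hbb-y (chr7:103851754-103853207), Hbb-bh1 (chr7:103841638-103843162), Hbb-bh2 (chr7:103838801-103840734), Hbb-bs (chr7:103826523-103827928) and Hbb-bt (chr7:103812524-103813923). Hbb-b1 and Hbb-b2 are placed by RefSeq on another sequence record of chromosome 7 and have no entry in GENCODE vM21. The first 120 coding bases of the GENCODE transcripts are shown because they decide which reads can be told apart. In the beta family, capitals mark the bases that differ from Hbb-y, of which there are 36 in Hbb-bh1 and 31 in Hbb-bs.
Hbb-y: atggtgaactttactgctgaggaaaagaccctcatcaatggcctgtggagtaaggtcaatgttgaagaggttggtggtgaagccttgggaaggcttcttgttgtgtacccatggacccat
Hbb-bh1: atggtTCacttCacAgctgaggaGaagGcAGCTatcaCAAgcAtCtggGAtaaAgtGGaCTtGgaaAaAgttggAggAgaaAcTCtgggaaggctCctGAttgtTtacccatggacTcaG
Hbb-bs: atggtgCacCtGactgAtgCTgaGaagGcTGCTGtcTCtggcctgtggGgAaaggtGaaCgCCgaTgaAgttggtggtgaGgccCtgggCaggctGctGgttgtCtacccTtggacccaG

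In the alpha family, capitals mark the 56 bases at which Hba-a1 differs from Hba-x in the same window.
Hba-x: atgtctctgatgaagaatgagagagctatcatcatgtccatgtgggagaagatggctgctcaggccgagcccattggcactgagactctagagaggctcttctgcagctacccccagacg
Hba-a1: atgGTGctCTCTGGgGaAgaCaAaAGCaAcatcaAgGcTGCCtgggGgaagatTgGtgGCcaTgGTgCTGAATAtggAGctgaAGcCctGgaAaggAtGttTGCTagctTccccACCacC

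Over the 120 bases Hbb-bt has the same sequence as Hbb-bs, and Hba-a2 the same as Hba-a1. Over the whole coding sequence the adult pairs differ at 1 of 441 bases (Hbb-bs and Hbb-bt) and at 1 of 426 bases (Hba-a1 and Hba-a2). Hbb-y and Hbb-bh1 are 76.4% identical, Hbb-y and Hbb-bs 74.4%, and Hba-x and Hba-a1 61.7%. Of the windows of 100 bases in the GENCODE transcript of Hba-a2, 74.5% also occur in Hba-a1, and 56.5% of those of Hba-a1 occur in Hba-a2. The matching shares were 62.6% for Hbb-bs and 54.8% for Hbb-bt. Hba-x, Hbb-y, Hbb-bh1 and Hbb-bh2 shared 0 windows with the other globin transcripts compared. Reads from the embryonic globins and from Hbb-bh2 could thus be placed on a single gene, while reads from many positions of the adult globins could not.

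**Figure D1:**
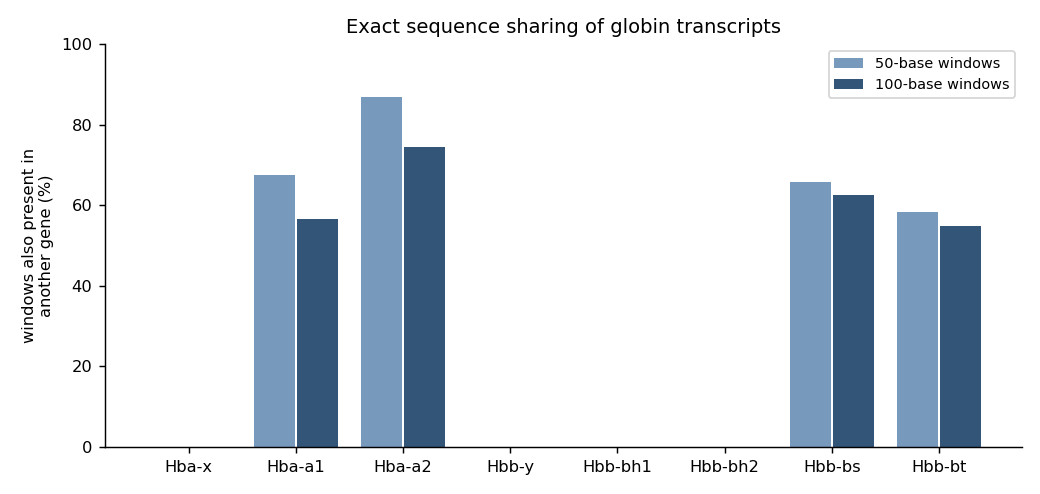
Share of the windows of 50 and 100 bases in each globin transcript (percent, vertical axis) that also occur in the transcript of another gene, by gene (horizontal axis). The adult alpha pair and the adult beta pair have bars between 54.8% and 86.9%, and Hba-x, Hbb-y, Hbb-bh1 and Hbb-bh2 stand at 0.

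The promoters of the genes with the most reads, and of Hba-a1 for contrast, are shown because they carry the short motifs through which globin genes are known to be regulated. Each line gives the 120 bases before the RefSeq start of the gene (GRCm38.p6), read on the strand of the gene. Motifs are in capitals, namely CCAAT (bound by NF-Y), CACCC (bound by Klf1 and related factors), GATAA (bound by GATA factors such as Gata1), TGACC (a half-site of nuclear receptors such as Nr2c1 and Nr2c2) and the TATA-like ATAAA and ATATAA, searched on both strands.
Hba-x, chr11:32276480-32276599, plus strand: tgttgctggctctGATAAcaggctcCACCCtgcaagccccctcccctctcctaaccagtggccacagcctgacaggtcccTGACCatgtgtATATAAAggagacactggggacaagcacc
Hba-a1, chr11:32283552-32283671, plus strand: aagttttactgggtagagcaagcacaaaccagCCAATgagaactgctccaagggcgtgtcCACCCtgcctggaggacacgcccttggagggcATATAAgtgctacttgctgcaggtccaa
Hbb-y, chr7:103853208-103853327, minus strand: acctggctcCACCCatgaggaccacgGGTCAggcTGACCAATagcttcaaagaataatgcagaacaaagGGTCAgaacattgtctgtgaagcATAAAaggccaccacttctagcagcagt
Hbb-bs, chr7:103827929-103828048, minus strand: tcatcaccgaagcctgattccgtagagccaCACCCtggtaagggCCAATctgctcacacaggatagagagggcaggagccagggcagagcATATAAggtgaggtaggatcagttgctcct

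All 4 windows hold CACCC, and Hba-a1, Hbb-y and Hbb-bs also hold CCAAT. Of these 4 windows that of Hba-x alone holds GATAA. The Hbb-y window holds 3 copies of TGACC, counting both strands, and 1 of them overlaps the CCAAT. Hba-x holds 1 copy, and in it ATAAA overlaps ATATAA. Among 32851 RefSeq promoters, the same 120 bases held CCAAT in 21.3%, CACCC in 31.7%, GATAA in 10.5%, TGACC in 18.9%, ATAAA in 20.2% and ATATAA in 4.47%. A match describes the letters of the window and is not a measured binding site.

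The later globins named by the rule had almost no reads in any of the lungs. Values in the tables are read counts divided by a size factor close to 1 for each sample, and reads were counted back by taking the common step of a sample's values as 1 read. Over all 18 samples, Hba-a1 had 5 reads, Hba-a2 had 0, Hbb-b1 had 12 and Hbb-b2 had 1. Hbb-bh2, a minor beta-like gene between Hbb-bh1 and the adult genes, had 15. None of the 5 had more than 4 reads in a sample. The same samples held 167785 reads of Hba-x and 627648 of Hbb-y. Since the 5 later globins did not pass the filter on low values, 3 of the 8 members were tested.

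The ratio of later to embryonic globin reads was accordingly close to 0 throughout. In Rptor control lungs 1 to 3 it was 0.00853%, 0.00551% and 0.00208%, and in Rptor-deficient lungs 0.00978%, 0 and 0.00497%. Tfam control lungs had 0.00399%, 0.00216% and 0.00189%, and Tfam-deficient lungs 0, 0.00313% and 0.00176%. Cox10 control lungs had 0.00532%, 0 and 0, and Cox10-deficient lungs 0.00988%, 0 and 0.0184%. These shares stand for 0 to 6 later reads beside 24488 to 63927 embryonic reads. The upper 95% exact Poisson limits lay between 0.00714% and 0.0429%, and the share that 3 reads would give lay between 0.00469% and 0.0123%. Such limits cover counting error only. Deficient and control lungs overlapped in all 3 lines, and no order of the 18 lungs could be read from so few reads.

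An adult beta globin was nevertheless abundant, under a symbol that the rule does not reach. The tables list Beta-s, which RefSeq gives as a synonym of Hbb-bs, the adult beta-s chain. It was added after the tables had been seen. No Beta-t or Hbb-bt values were analysed here, and Beta-s is uncertain to the extent that reads of the near-identical Hbb-bt were given to it or discarded. No adult alpha globin was counted at a like level. Whether the sequence shared by Hba-a1 and Hba-a2 has a part in their near-absence was not tested.

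Among the embryonic globins, Hbb-y, the late primitive beta-like gene, had the most reads per length in every lung. Rptor control lungs had 29556, 31355 and 40238 normalised reads of Hbb-y, and Rptor-deficient lungs 51850.4, 21154 and 34419. In the Tfam line the values were 31520.1, 29449 and 36071 in control lungs and 33187, 43262 and 39459 in deficient lungs. Those of the Cox10 line were 32299, 31154 and 32835 in control lungs and 44383, 41356 and 23364 in deficient lungs. Control lungs of the 3 lines thus sat close together, between 29449 and 40238, while the deficient lungs of the Rptor and Cox10 lines reached both above and below their controls. In those lines the highest and the lowest value were both from deficient lungs.

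Hba-x, which encodes the embryonic alpha-like chain zeta, differed by line more than by genotype. It stood at 5188, 4536 and 7156 in Rptor control lungs and at 10021, 2904 and 4939 in Rptor-deficient lungs. Tfam control lungs had 18781, 16973 and 16152 and Tfam-deficient lungs 17539, 19582 and 15392. In the Cox10 line it was 4651, 4408 and 4725 in control lungs and 5731, 5653 and 3330.3 in deficient lungs. All 6 lungs of the Tfam line lay above all lungs of the other lines, whichever genotype they had.

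Hbb-bh1, the earliest beta-like gene to be switched on in primitive cells, was the least abundant of the 3. Rptor control lungs had 335, 384 and 516 normalised reads and Rptor-deficient lungs 682, 192 and 383. It stood at 598, 449.7 and 629 in Tfam control lungs and at 534, 613 and 601 in Tfam-deficient lungs. Cox10 control lungs had 351, 274 and 357 and Cox10-deficient lungs 391, 394 and 215. Rptor-deficient lung 1 was the highest and Rptor-deficient lung 2 the lowest of all 18 for this gene, as they were for Hbb-y.

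Beta-s, the adult beta globin, was spread most widely between lines. In Rptor control lungs it was 19874, 28226 and 27273, and in Rptor-deficient lungs 19097, 28823 and 32472. Tfam control lungs had 21150.2, 11552 and 12249.5 and Tfam-deficient lungs 11605, 14064 and 14376. In Cox10 control lungs it was 4553, 4341 and 4804, and in Cox10-deficient lungs 5195, 4017 and 16015. Cox10-deficient lung 3 stood far above the other 5 lungs of its line and had the lowest Hbb-y, Hba-x and Hbb-bh1 among them.

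**Figure D2:**
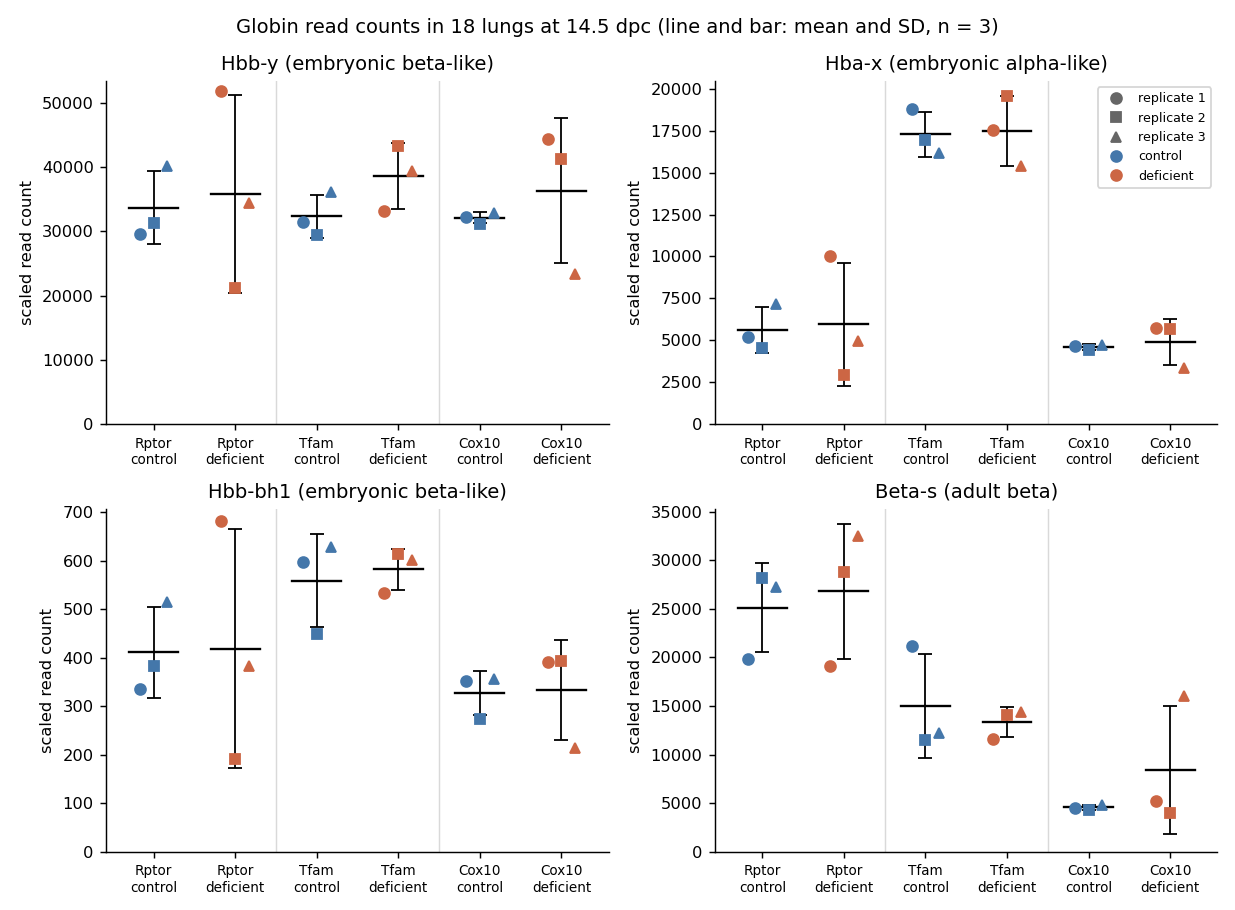
Scaled read counts (normalised reads, vertical axes from 0) of Hbb-y, Hba-x, Hbb-bh1 and Beta-s in each of the 18 lungs, by line and genotype, with the mean (line) and SD (bar) of each group of 3. Hbb-y control lungs lie between 29449 and 40238 in all lines, Hba-x is highest in the Tfam line, and Beta-s is lower in 5 of the 6 Cox10 lungs (4017 to 5195) than in any lung of the other lines, with Cox10-deficient lung 3 at 16015.

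Divided by transcript length, the level of Hbb-y in Rptor control lungs averaged 53264 ± 9035 normalised reads per kilobase (SD, n = 3). Beta-s averaged 40007 ± 7280 on the same scale, Hba-x 7024 ± 1703 and Hbb-bh1 672 ± 153. In Tfam control lungs the order was Hbb-y (51101 ± 5352), Beta-s (23860 ± 8522), Hba-x (21601 ± 1679) and Hbb-bh1 (912 ± 157), and the middle pair did not differ beyond their spread. In Cox10 control lungs Hbb-y (50705 ± 1357) was followed by Beta-s (7271 ± 369), Hba-x (5736 ± 207) and Hbb-bh1 (534 ± 75.2). The alpha-like chain that was counted was therefore listed well below the summed beta-like chains in every line.

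The adult over embryonic ratio, taken as Beta-s over the sum of Hba-x, Hbb-y and Hbb-bh1, did not overlap between the control lungs of the 3 lines, but did so in every pair of lines once deficient lungs were included. In Rptor control lungs it was 56.7%, 77.8% and 56.9%, and in Rptor-deficient lungs 30.5%, 119% and 81.7%. Tfam control lungs had 41.6%, 24.6% and 23.2% and Tfam-deficient lungs 22.6%, 22.2% and 25.9%. Cox10 control lungs had 12.2%, 12.1% and 12.7% and Cox10-deficient lungs 10.3%, 8.47% and 59.5%. A ratio within a sample does not depend on the scaling of its table, so these values can be set side by side. All lungs had been labelled 14.5 dpc, and the ratio ranged from 8.47% to 119% among them.

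Within lines, the ratio did not separate deficient from control lungs. It averaged 63.8% ± 12.1 (SD, n = 3) in Rptor control lungs and 77.0% ± 44.4 in Rptor-deficient lungs. The Tfam line had 29.8% ± 10.2 in control and 23.6% ± 2.05 in deficient lungs. Cox10 control lungs were tight at 12.3% ± 0.298, and deficient lungs averaged 26.1% ± 29.0. Deficient and control values overlapped in all 3 lines, and no p was computed for the ratio because it is a score over the members. The wide means depended on single lungs. Without Cox10-deficient lung 3, whose ratio was 6.34 times the mean of the other deficient lungs, the Cox10-deficient mean was 9.38%, and both remaining values lay below the 3 controls. Without Rptor-deficient lung 1, at 0.304 of the mean of the other deficient lungs, the Rptor-deficient mean was 100.3%, and both remaining values lay above the 3 controls. Without Rptor-deficient lung 2 it was 56.1%, with 1 of the remaining values below and 1 above the controls.

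**Figure D3:**
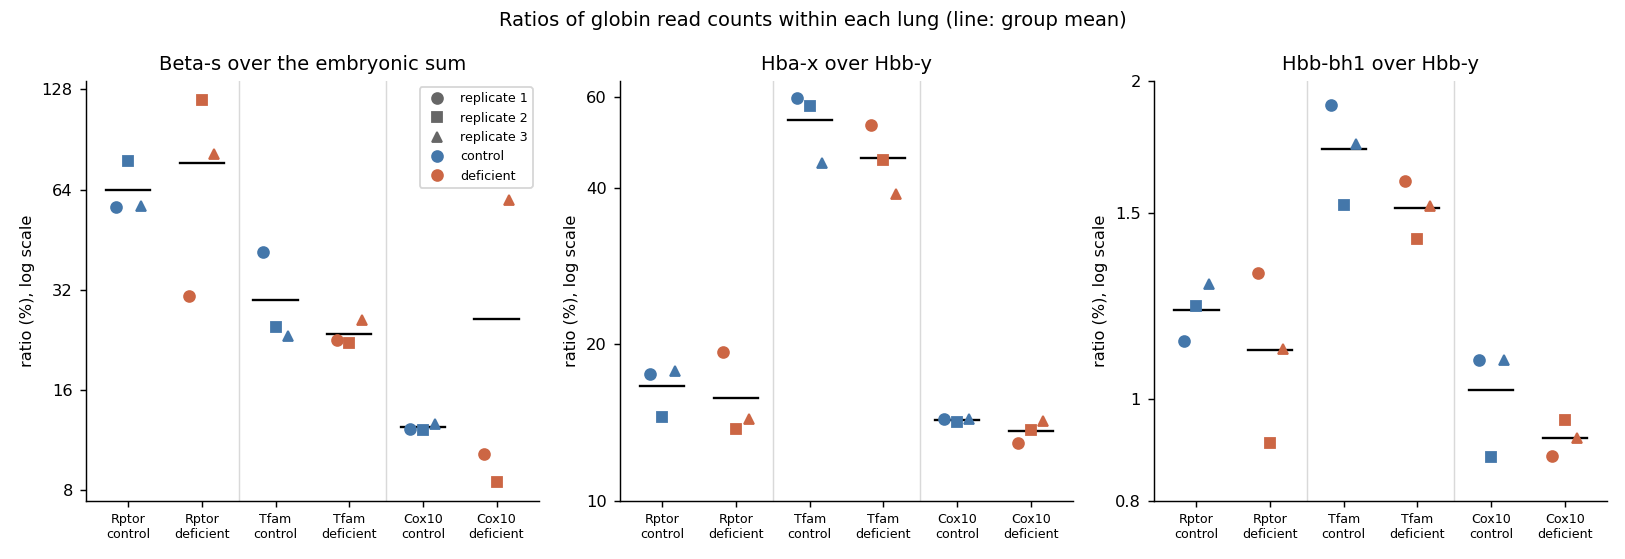
Ratios between globins within each of the 18 lungs (percent, vertical axes on a log scale), by line and genotype, with group means as lines. The panels show Beta-s over the embryonic sum, Hba-x over Hbb-y and Hbb-bh1 over Hbb-y. Beta-s over the embryonic sum averages 63.8%, 29.8% and 12.3% in Rptor, Tfam and Cox10 control lungs, and Hba-x over Hbb-y lies between 39.0% and 59.6% in the Tfam line and between 12.9% and 19.3% in the others.

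Ratios among the embryonic globins, which describe how far the primitive cells have matured, spread less than the adult share in Rptor-deficient and Cox10-deficient lungs. The reverse held for Hba-x over Hbb-y in Tfam-deficient lungs (SD of the log2 ratio 0.219 against 0.123). It also held for Hbb-bh1 over Hbb-y in Cox10 control lungs (0.176 against 0.0347). Hba-x over Hbb-y was 17.6%, 14.5% and 17.8% in Rptor control lungs and 19.3%, 13.7% and 14.3% in Rptor-deficient lungs. The Cox10 line had 14.4%, 14.1% and 14.4% in control lungs and 12.9%, 13.7% and 14.3% in deficient lungs. Tfam control lungs had 59.6%, 57.6% and 44.8% and Tfam-deficient lungs 52.9%, 45.3% and 39.0%. The groups overlapped in each line, and the Tfam control mean was 3.25 times that of Rptor control lungs and 3.77 times that of Cox10 control lungs. Hbb-bh1 over Hbb-y had means of 1.21% and 1.11% in control and deficient Rptor lungs, 1.72% and 1.52% in the Tfam line, and 1.02% and 0.918% in the Cox10 line. Hbb-bh1 over Hba-x averaged 7.38% and 7.06% in control and deficient Rptor lungs, 3.24% and 3.36% in those of the Tfam line and 7.11% and 6.75% in those of the Cox10 line. Cox10-deficient lung 3, with its high Beta-s, had Hba-x over Hbb-y of 14.3% and Hbb-bh1 over Hbb-y of 0.918%, both within the range of its line.

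The question put to each line was whether deletion in the epithelium altered globin RNA in the lung. No globin passed the test in any line. Each line was fitted with limma on log2(value + 1) over all genes that passed the filter, with Benjamini-Hochberg adjustment, and differences are deficient minus control on that scale. The p-values measure the spread between these samples, which the labels do not further describe. In whole lung, fewer red cells and less globin RNA per red cell cannot be told apart.

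In the Rptor line, Hbb-y differed by 0.01 (SE 0.28, adjusted p = 0.988), Hba-x by -0.08 (SE 0.38, adjusted p = 0.892), Hbb-bh1 by -0.13 (SE 0.39, adjusted p = 0.817) and Beta-s by 0.07 (SE 0.20, adjusted p = 0.798), with n = 3 a group in limma. Thus 0 of 4 passed, in a line in which 34.8% of all genes tested did (16.6% higher and 18.2% lower in deficient lungs). At an unadjusted p below 0.05 the count was also 0 of 4, beside 45.6% of all genes. The 95% intervals were wide, from -0.62 to 0.63 for Hbb-y and from -0.94 to 0.79 for Hba-x. The deficient and control values did not separate for any of the 4, whereas they did for 50.3% of all genes.

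The Tfam line gave narrower intervals. There Hba-x differed by 0.01 (SE 0.09, adjusted p = 0.962), Hbb-bh1 by 0.07 (SE 0.12, adjusted p = 0.817) and Beta-s by -0.12 (SE 0.19, adjusted p = 0.807) in limma. Hbb-y differed by 0.25 (SE 0.11, 95% interval 0.02 to 0.49), with an unadjusted limma p of 0.0375 and an adjusted p of 0.250. Its deficient values of 33187 to 43262 overlapped the control values of 29449 to 36071. None of 4 passed after adjustment, against 4.66% of all genes called (2.03% higher and 2.63% lower), and 1 of 4 before it, against 17.4% of all genes. Values separated for 0 of 4, against 22.8% of all genes.

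In the Cox10 line Beta-s differed by 0.61 (SE 0.44, adjusted p = 0.569), Hbb-y by 0.13 (SE 0.22, adjusted p = 0.818), Hba-x by 0.05 (SE 0.19, adjusted p = 0.918) and Hbb-bh1 by -0.02 (SE 0.24, adjusted p = 0.979) in limma. Again 0 of 4 passed, where 0.475% of all genes were called (0.141% higher and 0.335% lower), and 0 of 4 stood at an unadjusted p below 0.05, where 13% of all genes did. Values separated for 0 of 4 globins and for 21.3% of all genes. These values turned on 1 lung. Without Cox10-deficient lung 3, Hbb-y was higher in deficient lungs by 0.42 (SE 0.05, adjusted p = 0.00798) and Hba-x by 0.31 (SE 0.04, adjusted p = 0.0151), and both passed in limma. That lung had the lowest Hbb-y and Hba-x of its line, so leaving it out raised the deficient values by construction. These calls, with 2 deficient lungs left, are not separate evidence of a difference. Hbb-bh1 then differed by 0.27 (adjusted p = 0.363) and Beta-s by 0.00 (adjusted p = 0.995). In that fit 1.72% of all genes tested were called in either direction, and 0.492% of all genes tested were called higher in deficient lungs. The 2 deficient lungs left had Hbb-y of 44383 and 41356 against control values up to 32835, and Hba-x of 5731 and 5653 against control values up to 4725.

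The Rptor estimates of the 3 embryonic globins moved to either side of 0 with the lung left out, without a globin passing in limma. Without Rptor-deficient lung 1, Hbb-y differed by -0.31 (adjusted p = 0.243), Hba-x by -0.54 (adjusted p = 0.0942), Hbb-bh1 by -0.57 (adjusted p = 0.134) and Beta-s by 0.30 (adjusted p = 0.122) in a fit that called 36% of all genes (16.8% higher). Without Rptor-deficient lung 2, Hbb-y differed by 0.34 (adjusted p = 0.210), Hba-x by 0.35 (adjusted p = 0.399), Hbb-bh1 by 0.34 (adjusted p = 0.366) and Beta-s by 0.00 (adjusted p = 0.990), where limma called 28.4% of all genes (13.1% higher).

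**Figure D4:**
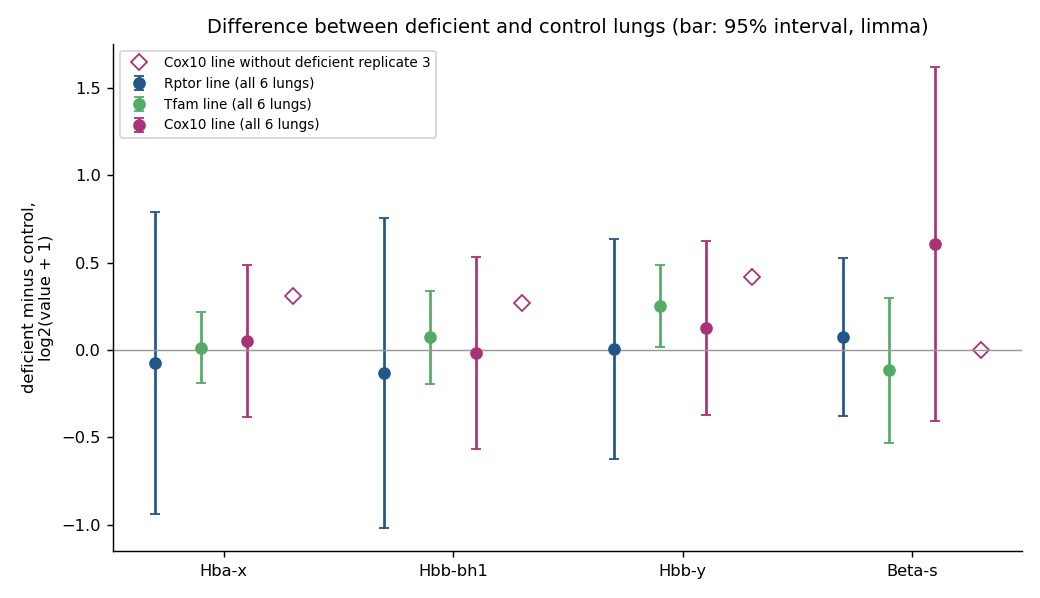
Difference between deficient and control lungs on the log2(value + 1) scale (vertical axis) for Hba-x, Hbb-bh1, Hbb-y and Beta-s, with 95% limma intervals (bars) for all 6 lungs of each line and open diamonds for the Cox10 line without deficient lung 3. Of the 12 intervals, that of Hbb-y in the Tfam line, 0.02 to 0.49, lies off 0. Without Cox10-deficient lung 3, which was lowest in both genes in its line, Hbb-y and Hba-x stand at 0.42 and 0.31.

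Whether the lines differed in their effect on globins was tested in a single limma fit of all 18 samples with 6 groups, over 14548 genes. For Rptor minus Tfam 0 of 4 globins passed, beside 11.2% of all genes, and the lowest adjusted p was 0.694. For Rptor minus Cox10 it was 0 of 4 beside 7.49%, with a lowest adjusted p of 0.573, and for Tfam minus Cox10 0 of 4 beside 0.055%, with a lowest adjusted p of 0.977. At an unadjusted p below 0.05 the count was 0 of 4 in each pair, beside 28%, 23% and 4.56% of all genes in the same order. A difference between lines in the effect of the deletion was not detectable with these samples.

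Globin RNA made up a small share of each library. The embryonic globins together held 0.0841% to 0.226% of all normalised reads. With Beta-s the globins averaged 0.220% in Rptor control and 0.236% in Rptor-deficient lungs, 0.232% and 0.251% in the Tfam line, and 0.141% and 0.171% in the Cox10 line. The summed share did not overlap between groups in the Cox10 line alone, where values of 21.3% of all genes tested did not either. It was 0.143%, 0.136% and 0.145% in control lungs and 0.191%, 0.175% and 0.148% in deficient lungs. Deficient lungs 1 and 2 reached this through the embryonic globins and deficient lung 3 through Beta-s.

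Control lungs differed between lines mainly for Beta-s, and for Hba-x in the Tfam line. Beta-s in Rptor control lungs was 5.50 times that in Cox10 control lungs, a step that only 6 of 12584 genes (0.0477%) matched or exceeded in either direction, Beta-s included. Between Tfam and Cox10 control lungs Beta-s differed 3.28-fold (0.461% of genes at least as far), and between Rptor and Tfam control lungs 1.68-fold (9.19%). Hba-x was 3.08 times higher in Tfam than in Rptor control lungs (0.453%) and 3.77 times higher than in Cox10 control lungs (0.254%), while Rptor and Cox10 control lungs differed 1.22-fold (20.2%). Hbb-bh1 differed by 1.26-fold to 1.71-fold and Hbb-y by 1.01-fold to 1.05-fold between pairs of lines. The tables were scaled separately, line and table cannot be told apart, and no test was made. Ftl1, the ferritin light chain gene, also differed between these lines, but in another order than Beta-s and Hba-x. It stood at 7055 to 8502 in Rptor control lungs, 39212 to 46150.3 in Tfam and 26308 to 27116 in Cox10 control lungs. Its part in the globin differences was not tested.

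Other genes that red cells need were examined in 5 lists holding 61 genes, of which 60 were listed in the tables. In the Rptor line 16 of the 55 tested passed (29.1%, beside 34.8% of all genes), 7 of them up and 9 down with the deletion. The Tfam line gave 2 of 58 (3.45%, beside 4.66%), and in the Cox10 line 0 of 57 (beside 0.475%), with 13 of 57 at an unadjusted limma p below 0.05 (beside 13% of all genes). The median difference over the 5 lists was 0.11 in the Rptor, 0.04 in the Tfam and 0.06 in the Cox10 line, and the median over all genes tested was 0.01, 0.00 and 0.00.

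Haem is made from a pathway that starts with Alas2 in red cells. Of 11 haem genes tested in the Rptor line 2 passed (18.2%, beside 34.8% of all genes). Ppox, which catalyses a late step, rose by 0.29 (adjusted p = 0.0220) and Tmem14c, a porphyrin carrier of mitochondria, fell by 0.25 (adjusted p = 0.0273) in limma. With the replicate number as a block, 3 rose and 1 fell, in a fit that called 5768 of 14940 genes. Ppox no longer passed without Rptor control lung 1 or 3 (highest adjusted p = 0.0801 in limma), nor Tmem14c without Rptor control lung 1 or 3 or deficient lung 2 (highest 0.0979). Fech, which inserts the iron, differed by 0.24 (adjusted p = 0.0859), and Alad by 0.07 (adjusted p = 0.820). None of 11 passed in the Tfam or the Cox10 line. In the Cox10 line, however, 7 of 11 had an unadjusted limma p below 0.05 (beside 13% of all genes) and 6 of 11 had values that did not overlap between the groups (beside 21.3%). The summed value of the 11 was 13560 to 13952 in Cox10 control and 14173 to 14946 in Cox10-deficient lungs. Alas2 had values of 1529, 1708 and 2102 in Rptor control lungs and 1964, 1863 and 3012 in Rptor-deficient lungs, and in the Cox10 line 885, 791 and 901 in control lungs and 1139, 898 and 1383 in deficient lungs. In the Tfam line Alas2 had values of 2459, 1892 and 2373 in control and 1758, 2227 and 2033 in deficient lungs, so that every Cox10 lung lay below every lung of the other lines. The same held for Beta-s except in Cox10-deficient lung 3.

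The membrane and skeleton of the red cell gave 4 of 14 passes in the Rptor line, a share of 28.6% below the 34.8% of all genes. Ank1, the ankyrin that ties the skeleton to the membrane, rose by 0.87 (adjusted p = 0.0172) and Gypc, a glycophorin, by 0.23 (adjusted p = 0.0137), while Epb4.9, an actin-bundling protein, fell by 0.58 (adjusted p = 0.0126) in limma. With the replicate number as a block, 6 rose and 1 fell, in a fit that called 5768 of 14940 genes. Leaving out 1 lung ended the call of Ank1 (without control lung 2 or deficient lung 3), Gypc (control lung 3) and Epb4.9 (control lung 2), with adjusted p up to 0.0572 in limma. Epb4.1 differed by -0.05 (adjusted p = 0.542). In the Tfam line Ermap, a red cell membrane protein, rose by 0.77 (adjusted p = 0.0261), from 45.0 to 61.0 in control lungs to 83.4 to 100.2 in deficient lungs, and it was the only 1 of 16 to pass (6.25%, beside 4.66% of all genes). Ermap passed in 1 of the 6 fits that left out a lung, that without control lung 1, with adjusted p of 0.0384 to 0.103 in limma. Its adjusted p was 0.0509 without a filter and 0.289 with all 18 samples in one fit. In the Cox10 line 0 of 15 passed.

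Among 9 red cell transcription factors tested in the Rptor line 3 passed (33.3%, beside 34.8% of all genes). Zfpm1, the partner of Gata1, rose by 0.62 (adjusted p = 0.00146) and Ldb1, a bridging protein of the globin locus, by 0.15 (adjusted p = 0.0439). E2f2, a cell cycle factor of erythroblasts, fell by 0.48 (adjusted p = 0.00696) there and by 0.38 (adjusted p = 0.00705) in the Tfam line, where it was the 1 of 10 to pass (beside 4.66% of all genes). E2f2 passed in the Tfam line and Zfpm1 in the Rptor line whichever lung was left out, while Ldb1 passed in 0 of 6 such fits (adjusted p from 0.0565 to 0.128 in limma). Lmo2 differed by 0.02 in the Rptor line (adjusted p = 0.917). Most of these genes are also expressed outside red cells, so their values in whole lung do not stand for red cells alone.

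Regulators of the embryonic to adult switch held 10 genes, all of them tested. Myb, which erythroid progenitors need, fell by 1.17 in the Rptor line (adjusted p = 0.000555), from 146 to 167 in control lungs to 68.3 to 73.1 in deficient lungs, and was the only 1 of 10 to pass there, beside 34.8% of all genes. Its difference was -0.42 in the Tfam line (adjusted p = 0.0623) and -0.37 in the Cox10 line (adjusted p = 0.353), in which 0 of 10 passed. Bcl11a, the repressor of embryonic globin genes, differed by -0.12 in Rptor, -0.09 in Tfam and -0.23 in Cox10 lungs, with adjusted p from 0.384 to 0.630. Igf2bp1, an RNA-binding protein of early stages, differed by -0.06, -0.03 and -0.19 in the same order, and the remodeller Chd4 by -0.06 in the Rptor and -0.10 in the Cox10 line. In Cox10-deficient lung 3, Bcl11a stood at 634 against 1059 to 1169.6 in the other 5 lungs, Igf2bp1 at 3535 against 4934 to 5645, and Lin28b, a regulator that is high in early embryos, at 101 against 154 to 189.

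Of the 5 red cell lists, iron uptake and red cell enzymes had the highest share called in the Rptor line, with 6 of 11 (54.5%, beside 34.8% of all genes), of which 5 fell and 1 rose. The 1 that rose was Blvrb, a reductase abundant in red cells, by 0.55 (adjusted p = 0.00365). Tfrc, the transferrin receptor that brings in iron, fell by 0.93 (adjusted p = 5.68e-05), from 5017 to 5763 in control lungs to 2699.5 to 2909 in deficient lungs. Slc11a2, which moves iron out of endosomes, fell by 0.56 (adjusted p = 0.00113), Xpo7, a nuclear transport factor, by 0.34 (adjusted p = 0.00388) and Prdx2, an antioxidant enzyme abundant in red cells, by 0.20 (adjusted p = 0.0394). Prdx2 passed only without deficient lung 2 among the 6 fits that left out a Rptor lung (adjusted p up to 0.122 in limma), whereas Tfrc, Slc11a2, Xpo7 and Blvrb passed in each. Tfrc differed by -0.05 in both the Tfam (adjusted p = 0.865) and the Cox10 line (adjusted p = 0.790), where 0 of 11 passed. Car1, an enzyme of definitive red cells, had at most 4 reads in any lung. Of the globins outside the 2 clusters, Cygb, found mainly in connective tissue cells, rose by 0.67 with loss of Rptor (adjusted p = 0.0209) and by 0.44 with loss of Tfam (adjusted p = 0.0281), and differed by 0.31 with loss of Cox10 (adjusted p = 0.480). Cygb no longer passed in 3 of 6 such fits of the Rptor line (without control lung 2 or deficient lung 2 or 3, highest adjusted p = 0.0831 in limma) and in 3 of 6 of the Tfam line (without control lung 1 or deficient lung 2 or 3, highest 0.116). Its Tfam call was also lost in 1 of 8 other settings (adjusted p up to 0.232 in limma).

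Genes that take up free haemoglobin and haem and export iron gave 5 of 8 passes in the Rptor line, 3 higher and 2 lower, beside 34.8% of all genes. Slc40a1, the iron exporter of macrophages, rose by 0.77 (adjusted p = 6.78e-05) and Lrp1, a receptor for haem bound to haemopexin, by 0.67 (adjusted p = 0.00546), while Ftl1 fell by 0.28 (adjusted p = 0.0203, but 0.0501 in limma without control lung 2 and 0.0666 without deficient lung 2). Slc40a1 also rose in the Tfam line by 0.49 (adjusted p = 0.00257), as 1 of 8, beside 4.66% of all genes. None of 8 passed in the Cox10 line. Of the macrophage markers 10 of 10 rose in the Rptor line (16.6% of all genes did), where 2 of the clearance genes fell. The summed value of these markers was 5187 to 5496 in control and 7963 to 9802 in deficient lungs. Without 1 lung, 4 of these markers (Cd68, Fcgr1, Lyz2 and Mrc1) lost their call in at least 1 fit. Their part in the result was not tested.

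Markers of other cells differed between the lungs whose globins were compared. Of 8 lung epithelial markers, 7 fell with loss of Rptor (18.2% of all genes did), 2 fell with loss of Tfam (2.63%) and 0 passed with loss of Cox10 (0.475% in either direction), where 6 of 8 had an unadjusted limma p below 0.05 (13% of all genes), while 7 of 8 endothelial markers rose in the Rptor line (16.6% of all genes). Liver markers summed to 555 to 1956 in the Rptor line, 739.6 to 2468 in the Tfam line and 684 to 1462 in the Cox10 line. Of these markers 2 of the 5 tested rose in the Rptor line, beside 16.6% of all genes (Afp by 1.44 and Trf by 0.97). In the Tfam and Cox10 lines 0 passed, beside 4.66% and 0.475% of all genes. Heart markers summed to 684 to 3055, 3863 to 19766 and 647 to 5543 in the same order, and 1 of 7 passed in the Rptor line (14.3%, beside 34.8% of all genes), Myh7, which rose by 1.35, and 1 of 8 in the Tfam line (beside 4.66%), Nppa, which rose by 2.29. Of 8 megakaryocyte markers Pf4 alone passed, in the Rptor line (0.44, 1 of 8 beside 34.8% of all genes), and of 10 hypoxia genes Slc2a1 alone, in the Tfam line (0.36, 1 of 10 beside 4.66%). Leaving out 1 lung ended the calls of Afp, Pf4 and the endothelial Cldn5 in 3 of 6 fits each. It ended that of the endothelial Egfl7 in 5 of 6, and that of the epithelial Cldn6 in 2 of 6 in the Tfam line. In the other settings, 1 of 8 ended the call of Slc2a1 (adjusted p up to 0.595 in limma), Myh7 (0.0668), Afp (0.108) and, in the Tfam line, Cldn6 (0.178). For Egfl7 it was 2 of 8 (0.137). The part of any of these in the globin values was not tested.

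The lung with the highest adult share of its line also stood apart in other genes. Cox10-deficient lung 3 had a mean correlation of 0.980 with the other 5 lungs of its line, against 0.988 to 0.990 for those. Its Sftpc, a marker of distal epithelium, was 4084 against 386 and 562 in the other deficient lungs and 1241 to 1422 in control lungs. Its endothelial markers summed to 40881, against 25334 to 28615 in the other 5, and its hypoxia genes to 54305, against 40717 to 47684. Slc4a1, the anion exchanger of red cells, was 1078 there against 919.9 to 1484. The 8 epithelial markers together summed to 23984, against 23324 to 23777 in control lungs and 15514 and 17477 in the other deficient lungs, so that Sftpc does not stand for the whole list. Beta-s, Sftpc and the endothelial markers were high together, and embryonic globins, Bcl11a, Igf2bp1 and Lin28b low together, in a single lung.

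In the Rptor line the lungs varied in other ways. Rptor-deficient lung 1, which had the lowest ratio and the highest embryonic globins, had a mean correlation of 0.967 against 0.974 to 0.977, and its Slc2a1, a glucose carrier induced by low oxygen, was 7617 against 2259.8 to 3084. Its hypoxia genes summed to 67275, against 33566 to 51751 in the other 5 lungs. Rptor-deficient lung 2 had the lowest embryonic globins and the lowest hypoxia sum of the line, whereas in the Cox10 line the lung with the lowest embryonic globins, deficient lung 3, had the highest hypoxia sum. Rptor-deficient lung 3 had the highest Hemgn, an erythroblast factor, at 119.6 against 5.99 to 24.9, and the highest Slc4a1 of the line at 1651. The part of these differences in the globin values was not tested.

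**Figure D5:**
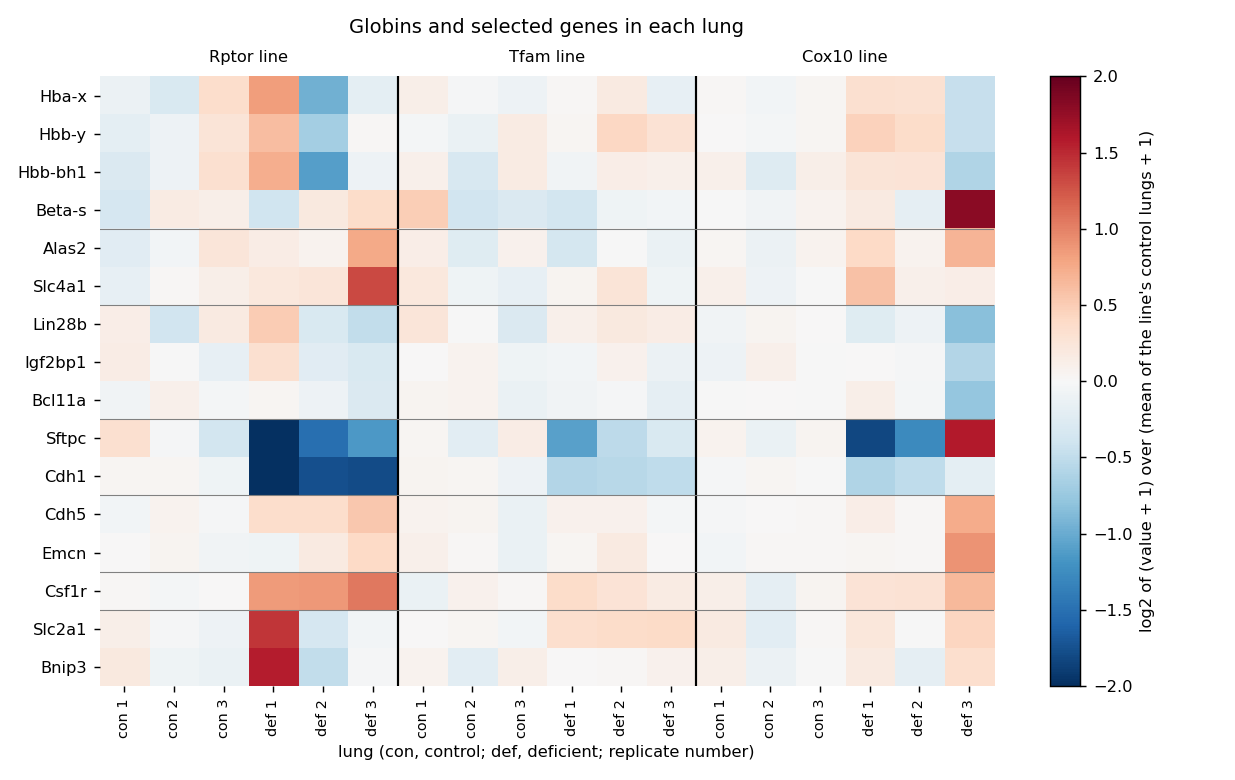
Heat map of 4 globins and 12 other genes (vertical axis) in each of the 18 lungs (horizontal axis), coloured by the log2 of value + 1 over the mean of the control lungs of the same line + 1, with the colours ending at -2 and 2. Cox10-deficient lung 3 is high for Beta-s (16015) and Sftpc (4084) and low for Hbb-y (23364), and Rptor-deficient lung 1 is high for Hba-x (10021) and Slc2a1 (7617).

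The genes whose values followed the globins most closely were ranked by Pearson r over the 18 lungs, on log2 values from which the mean of the line had been subtracted, among 12580 genes. The points share libraries and lines, and the values are descriptions. Within the globins, the embryonic sum had r of 0.990 with Hbb-y, 0.948 with Hbb-bh1 and 0.939 with Hba-x, and Beta-s had r of -0.474 with that sum. Hbb-y, Hbb-bh1 and Hba-x are parts of that sum, and Hbb-y holds most of it, so their r with it are raised by construction. Most like Beta-s were Slc27a6 (r = 0.896), Emcn (0.882), Cd34 (0.879), Trpc6 (0.865) and Scn7a (0.857). Without Cox10-deficient lung 3 and Rptor-deficient lung 1 these r fell to between 0.371 and 0.602, so they rested largely on those lungs. Alas2 had an r of 0.701 with Beta-s, and of 0.663 without the same pair of lungs.

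Most like the embryonic sum were Hsd3b6 (r = 0.886), Fsd1 (0.856), Pcsk4 (0.853), Hoxb2 (0.847) and Trim32 (0.815), with r of 0.605 to 0.763 without those lungs. For the ratio of Beta-s to the embryonic sum, the highest were Dynlt3 (r = 0.900), Tmem204 (0.899), Cd34 (0.892), Slc27a6 (0.875) and Fgf1 (0.874), and the lowest were Crabp2 (-0.874), Pbx2 (-0.867), Zcchc3 (-0.866), Basp1 (-0.858) and Dpf1 (-0.853). Without that pair of lungs Dynlt3 had an r of 0.823, and Crabp2, which binds retinoic acid, an r of -0.660. Crabp2 was 223 in Cox10-deficient lung 3 against 454 to 588 in the other Cox10 lungs, and 334 in Rptor-deficient lung 1 against 89.1 to 227 in the other Rptor lungs.

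Totals of normalised reads lay between 27727202 and 29611064 per sample, and 17671 to 17910 genes had a value above 0. The targeted genes, measured in whole lung while the deletion is limited to the epithelium, did not pass in their own lines. Rptor differed by -0.07 in the Rptor line (adjusted p = 0.570), Tfam by -0.12 in the Tfam line (adjusted p = 0.472) and Cox10 by -0.01 in the Cox10 line (adjusted p = 0.979) in limma. Sftpc and the other epithelial markers were present in all 18 lungs.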

How the data were processed

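Whole lungs of mouse embryos at 14.5 dpc were measured by bulk RNA-seq, with 3 samples in each of 6 groups. The labels state extraction with a Qiagen column kit and an Illumina library protocol, while the methods of the study add TRIzol and name a BGISEQ-500 sequencer. The submitters' processing notes name Trim Galore, HISAT2, featureCounts, DESeq2 and mm10. Versions and the annotation are not given in the sources used here. How reads that fit several places were counted, and whether counting used strand, are not given either.

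Per the file headers and values, what the authors deposited is a normalised signal, that is, gene read counts over a sample's size factor. All values (100%) were whole multiples of the sample's step, which lay between 0.978 and 1.02, within a tolerance of 0.1 reads, and reads were counted back from this step. The 3 tables were scaled separately, so tests stayed within a table and ratios within a sample. The authors also deposited log2 fold changes, p-values and adjusted p-values, which were not used.

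Groups and replicate numbers came from the titles. Values were analysed as log2(value + 1), which understates the change of low genes. Genes with a minimum value of 10 in 3 or more samples of a line were tested. limma 3.58.1 in R 4.3.3 was fitted to each line with genotype as the only term (lmFit, eBayes with trend), two-sided, with Benjamini-Hochberg adjustment over all genes tested and a threshold of 0.05. The fit was tested on simulated data. Effects were compared between lines in 1 fit of 18 samples and 6 groups, without 4 table entries whose symbols were duplicated. Ratios, intervals and motif searches were computed in Python 3.11.15 (pandas 2.3.3, numpy 2.4.6, scipy 1.17.1). Sequences came from RefSeq (promoters, coordinates) and GENCODE vM21 (transcripts), and all 4 globins with values above the filter were matched to them, Beta-s through its RefSeq synonym.

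Samples with the same number deviated together from their group means in the Rptor line (r of 0.221, 0.330 and 0.259 for numbers 1 to 3, across genes). The number was treated as a possible pairing there, as r was over 0.1 for every number. In the Tfam (-0.312, -0.207, 0.151) and Cox10 lines (0.447, 0.202, 0.0488) it was not over 0.1 for every number, although it was for 2 of 3 in the Cox10 line. The titles do not say what a number stands for. The Rptor tests in the results kept genotype as the only term and left this possible pairing out, and the block was an alternative. With the block, Beta-s in the Rptor line had an SE of 0.07 in place of 0.20 and an adjusted p of 0.429 in limma.

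The members and gene lists were chosen with earlier results of these data known. Named genes followed a rule, with exceptions chosen after their values were seen. All Hba- and Hbb- genes were named, with the 2 genes of highest mean in each list, the 2 of lowest adjusted p past the threshold in each list and line, and the 5 genes most alike to each globin pattern. The exceptions are Alas2, Slc4a1, Hemgn, Ank1, Car1, Lin28b and Bcl11a, the genes named in lungs that stood apart, and Beta-s. The alternatives were a pseudocount of 0.1, no filter, a mean of at least 50, library totals, all samples in 1 fit, the replicate block, other ratio definitions and leaving out each sample. Some genes of the red cell lists count in the totals and are not reported here.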

Additional observations from a re-analysis of the deposited data

How the results depend on the processing

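No globin call changed except where single lungs were left out, and none of 96 values of globin differences under the other settings changed sign or side of the threshold, and neither did any of 24 values of differences between lines. With the replicate number as a block, globin calls stayed at 0 in each line (Hbb-y in the Rptor line 0.01, adjusted p = 0.985 in limma), Rptor calls over all genes went from 5202 to 5768, Tfam calls from 702 to 802 and Cox10 calls from 71 to 48, and red cell calls in the Rptor line from 16 to 21. With all 18 samples in one fit, 399 genes were called in the Tfam and 327 in the Cox10 line, and of the red cell lists 1 gene in each. Without a filter 1 red cell gene was called in the Tfam line. The Tfam red cell call lost in both fits was Ermap. The later over embryonic ratio rests on single reads. It became 0 in Rptor control and deficient lungs, 0.00381% in Tfam-deficient and 0.00711% in Cox10 control lungs with alpha genes only. With the adult beta genes only, Hbb-b1 and Hbb-b2 without Hbb-bh2, over Hbb-y and Hbb-bh1 it was 0.000909% in Tfam control and 0 in Tfam-deficient lungs, with adult genes only 0.00130% in Tfam control lungs, and with 1 added to each sum 0.00468% and 0.00341% in Tfam control and deficient lungs. Counting Beta-s as later gave 63.8%, 77.0%, 29.8%, 23.6%, 12.3% and 26.1% in Rptor, Tfam and Cox10 control and deficient lungs, in pairs. Beta-s over Hbb-y alone was 46.8% in Tfam control, 34.6% in Tfam-deficient and 14.2% in Cox10 control lungs, and per length the Cox10 control ratio was 12.8%. These definitions were chosen after seeing the data where they use Beta-s. The cause of the other changes was not tested.

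Leaving out each lung in turn gave these ranges of log2 differences. Rptor-deficient minus Rptor control lungs gave -0.54 to 0.35 for Hba-x, -0.57 to 0.34 for Hbb-bh1, -0.31 to 0.34 for Hbb-y, -0.086 to 0.30 for Beta-s. Tfam-deficient minus Tfam control lungs gave -0.072 to 0.10 for Hba-x, -0.077 to 0.17 for Hbb-bh1, 0.17 to 0.36 for Hbb-y, -0.28 to 0.16 for Beta-s. Cox10-deficient minus Cox10 control lungs gave -0.082 to 0.31 for Hba-x, -0.17 to 0.27 for Hbb-bh1, -0.046 to 0.42 for Hbb-y, 0.00 to 1.00 for Beta-s. For Rptor minus Tfam, the difference of effects, they were -0.56 to 0.34 for Hba-x, -0.65 to 0.26 for Hbb-bh1, -0.56 to 0.086 for Hbb-y, -0.085 to 0.42 for Beta-s. For Rptor minus Cox10, the difference of effects, they were -0.60 to 0.30 for Hba-x, -0.56 to 0.35 for Hbb-bh1, -0.43 to 0.21 for Hbb-y, -0.92 to 0.073 for Beta-s. For Tfam minus Cox10, the difference of effects, they were -0.30 to 0.095 for Hba-x, -0.20 to 0.24 for Hbb-bh1, -0.16 to 0.30 for Hbb-y, -1.12 to -0.12 for Beta-s. Globin calls went from 0 to 2 without Cox10-deficient lung 3, the lung with the lowest Hbb-y and Hba-x of its line, and were 0 without any other lung. Calls over all genes ranged from 3555 to 5315 for Rptor. For Tfam (702 with all lungs) they were 357 without control lung 1, 1114 without control lung 3, and 441, 418 and 354 without deficient lungs 1 to 3. For Cox10 (71) they were 3, 5 and 3 without control lungs 1 to 3, 32 without deficient lung 2 and 255 without deficient lung 3. Red cell calls ranged from 11 to 21 for Rptor, and for Tfam fell from 2 to 1 without control lung 2 or any deficient lung. The later over embryonic ratio (percent) ranged over 0.00379 to 0.00702 (Rptor control), 0.00249 to 0.00738 (Rptor deficient), 0.00202 to 0.00307 (Tfam control), 0.000881 to 0.00245 (Tfam deficient), 0 to 0.00266 (Cox10 control), 0.00494 to 0.0141 (Cox10 deficient). The Beta-s ratio (percent) ranged over 56.8 to 67.4 (Rptor control), 56.1 to 100 (Rptor deficient), 23.9 to 33.1 (Tfam control), 22.4 to 24.3 (Tfam deficient), 12.2 to 12.4 (Cox10 control), 9.38 to 34.9 (Cox10 deficient).

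A planned count test on the reads counted back was not run, and every read number here rests on taking a sample's step, which lies close to 1, as 1 read. Lengths of coding sequence were not used as an alternative. The later globins had 0 to 6 reads a sample, so their ratios move with single reads, and what held their reads this low was not tested. With 3 lungs a group, the intervals of the Rptor and Cox10 lines include changes of more than 0.3 on the log2 scale in either direction for Hba-x, Hbb-y and Hbb-bh1.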
